A study of Arabidopsis thaliana with 6 samples.

Results

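Xylem differentiation genes are described here through 10 loci, of 33560 listed in the expression table, that were chosen by locus for their known roles in vessel formation. They are the NAC transcription factors VND6 and VND7, the MYB transcription factors MYB46 and MYB83, the cysteine peptidases XCP1 and XCP2, the laccases LAC4 and LAC17, the membrane protein TED6 and the thermospermine synthase ACL5. The tested plants were *bron-2*, a T-DNA insertion line in BRONTOSAURUS (BRON, AT1G75710), which encodes a transcription factor, and the untreated Columbia-0 wild type served as the control. RNA came from about 2 mm of root tip of 5-day-old seedlings of both genotypes, with 3 biological replicates of each, all grown on sucrose medium in long days. The mutant is represented by this single insertion line, so the allele and the line cannot be told apart. The study sequenced these libraries to find transcripts modulated by BRON.

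Vessel elements carry water and work only once they are dead. A procambium cell that becomes a vessel switches on VND-type NAC factors, which act on MYB46 and MYB83 and on many wall genes. The cell then lays down a patterned secondary wall of cellulose and xylan, hardens it with lignin, and digests its own contents. Thermospermine, the product of ACL5, holds vessel maturation back. In the root tip, protoxylem vessels mature closest to the tip, and their cells are a small share of the tissue.

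None of the 10 genes was called as different between *bron-2* and wild-type root tips. Among the 7 genes with a mean of 1 FPKM or more, 0 passed an unadjusted p-value under 0.05 with limma on log2(FPKM + 1). Of all 17107 tested genes 9.79% passed, and a count of 0 in so short a list is near that share. Their differences lay between -0.050 and 0.30 on the log2(FPKM + 1) scale, with a median of 0.11 (-0.0072 to 0.20 when single libraries were omitted), and the median over all tested genes was -0.000995. The estimate was above 0 for 4 of the 7 genes and below 0 for 3. At an adjusted p-value under 0.05, 0 of the 7 genes and 0.0818% of all tested genes were called, and the smallest adjusted p among the 7 was 0.644 (limma, Benjamini-Hochberg over all tested genes). The remaining 3 genes, VND6, VND7 and MYB83, stayed under 1 FPKM and are given by library. In a fit without the filter 0 of the 10 genes passed the unadjusted threshold, against 8.7% of 22770 genes. FPKM counts the fragments of a gene scaled by transcript length and by the mapped fragments of the library, so levels of different genes can be set side by side. In whole root tips, fewer vessel cells and less RNA per vessel cell cannot be told apart.

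BRON itself had 1.25, 0.925 and 1.10 FPKM in replicates 1, 2 and 3 of *bron-2*, against 17.9, 16.1 and 17.3 FPKM in wild type. It was lower in *bron-2*, as the labels require, by a log2 difference of -3.12 (standard error 0.110, limma adjusted p = 7.91e-05). Its mean FPKM in *bron-2* was 6.38% of that in wild type. All log2 differences given here are on the scale of log2 with a pseudocount added, 1 FPKM unless stated, which understates changes of low genes. The read number behind each library is unknown from FPKM. The steps between low values gave a relative depth of 1.20 to 1.25 in *bron-2* libraries and 0.974 to 1.11 in wild type, with wild type replicate 1 set to 1, so each *bron-2* library was deeper than each wild-type library. Of 8 lists of marker genes, only that of green shoot tissue had summed levels that did not overlap between the genotypes. Summed FPKM of 6 phloem markers was 3.61 to 4.95 in *bron-2* libraries and 3.63 to 3.99 in wild type, with 5 of the 6 under a mean of 1 FPKM. For 3 procambium markers it was 4.90 to 6.26 in *bron-2* and 4.41 to 5.78 in wild type, and for 8 endodermis markers 2688 to 3603 in *bron-2* and 1843 to 3086 in wild type. Of the endodermis list, CASP2 and CASP5 passed the unadjusted threshold as higher (limma adjusted p = 0.508 and 0.498). Estimates were above 0 for 7 of the 8 endodermis markers and below 0 for 1, with a median of 0.32. Of all tested genes 4.03% were called higher and 5.76% lower. For 4 root stem cell niche markers the sum was 8.75 to 11.3 in *bron-2* and 9.84 to 11.1 in wild type, with PLT2 past the unadjusted threshold as lower (log2 difference -0.40, limma adjusted p = 0.465) and PLT1 lower in every *bron-2* library. For 4 root cap markers it was 71.7 to 83.8 in *bron-2* and 80.6 to 95.8 in wild type, with negative estimates for all 3 tested markers, none past the threshold, and BRN2 lower in every *bron-2* library. Root hair markers (6 genes) summed to 1096 to 1461 in *bron-2* and 1202 to 1315 in wild type, and markers of dividing cells (4 genes) to 24.3 to 37.0 in *bron-2* and 30.0 to 40.9 in wild type, with no calls. Estimates were below 0 for all 4 markers of dividing cells, and for root hair markers they were above 0 for 2 and below 0 for 4. The sum of 3 markers of green shoot tissue was lower in every *bron-2* library, at 11.2 to 12.2 FPKM against 18.1 to 24.1 FPKM in wild type, and 2 of these markers passed the unadjusted threshold as lower. No marker of these lists was at 0 in all libraries, and the phloem factors NAC45 and NAC86 were listed at 0 in 2 and 3 of the 6 libraries and the niche factor WOX5 in 1. The part of depth and of other cell types in the values of the xylem genes and of the pathway lists was not tested.

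XCP1 and XCP2 encode papain-like cysteine peptidases that degrade the vessel contents, and their promoters are printed because XCP1 alone among the 10 genes carried the sequence searched for. That sequence was CTTNAAAGCNA, the tracheary element-regulating cis-element known from genes switched on in vessel cells. It was searched on both strands in the 250 bases before each annotated gene start, and it was the only motif searched. Each promoter below covers 150 bases in the TAIR10.1 genome, written in the gene's direction and ending at the base before the gene start, with the match in capitals.
XCP1, chr4:16810332-16810481, plus strand: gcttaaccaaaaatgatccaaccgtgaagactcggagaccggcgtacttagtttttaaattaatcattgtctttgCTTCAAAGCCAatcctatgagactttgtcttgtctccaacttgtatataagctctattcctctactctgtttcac
XCP2, chr1:7251961-7252110, plus strand: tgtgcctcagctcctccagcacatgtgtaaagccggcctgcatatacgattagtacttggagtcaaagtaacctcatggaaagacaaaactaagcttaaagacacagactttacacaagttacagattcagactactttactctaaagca
The match in XCP1 begins 75 bases before the gene start, at position -75. The motif was present in 101 of 27444 promoters of protein-coding genes, or 0.368%. In XCP2 and the other 8 genes these letters do not occur in the window searched.

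Among 83 further genes, listed below by pathway, 5 had a match. The matches are shown with their neighbouring bases so that the variable positions can be compared with XCP1. Capitals mark the match, and LBD30 carries it on the opposite strand.
LBD30, chr4:89810-89840, plus strand: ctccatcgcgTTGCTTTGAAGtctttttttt
CESA4, chr5:17714360-17714389, plus strand: tacataataaCTTGAAAGCTActctaagtt
FLA11, chr5:753841-753871, minus strand: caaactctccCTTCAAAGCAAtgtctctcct
MC9, chr5:1153667-1153697, plus strand: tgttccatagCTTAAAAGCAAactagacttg
XSP1, chr4:93504-93534, plus strand: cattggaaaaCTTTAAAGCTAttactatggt
LBD30 is a regulator of vessel formation, CESA4 a cellulose synthase subunit of the secondary wall, FLA11 a fasciclin-like arabinogalactan protein, MC9 a metacaspase and XSP1 a serine peptidase of the xylem. Neither XCP1 nor any of these 5 genes passed the unadjusted threshold between genotypes. Their log2 differences were -0.046 for LBD30, 0.034 for CESA4, 0.10 for FLA11, 0.18 for MC9 and -0.037 for XSP1.

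VND7 (AT1G71930) directs protoxylem vessel formation and has 4 exons on chromosome 1 between 27074702 and 27077991, plus strand. It was at 0.603, 0.893 and 0.7904 FPKM in replicates 1, 2 and 3 of *bron-2*, against 0.414, 0.437 and 0.684 FPKM in wild type. All *bron-2* libraries were above wild type replicates 1 and 2, but *bron-2* replicate 1 was below wild type replicate 3, so the groups overlapped. In the fit without the filter the log2 difference was 0.22 (95% interval -0.036 to 0.48, limma adjusted p = 0.607). The exact permutation test over the 20 assignments of 6 libraries, two-sided, gave p = 0.2, where 0.1 is the smallest p this design allows.

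VND6 (AT5G62380), the metaxylem counterpart of VND7, spans 25050152 to 25052054 on the plus strand of chromosome 5 and overlaps AT5G62390 on the opposite strand. By the mean over the 6 libraries it was the lowest of the 10 genes, although MYB83 was lower in wild type replicates 1 and 3. VND6 was at 0.249, 0.261 and 0.155 FPKM in replicates 1, 2 and 3 of *bron-2* and 0.316, 0.107 and 0.186 FPKM in wild type. The highest and the lowest library were both wild type. Multiplied by relative depth, which undoes the library scaling of FPKM, VND6 was at 2.98, 2.99 and 1.82 times the lowest library in *bron-2*. In wild type it was at 3.02, 1 and 1.97 times. The libraries thus stood near 1, 2 or 3 times the lowest value. The log2 difference without the filter was 0.024 (95% interval -0.18 to 0.23, limma adjusted p = 0.958). VND7 was above VND6 in all 6 libraries, by 2.42 to 5.11 times in *bron-2* and 1.31 to 4.07 times in wild type.

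MYB46 (AT5G12870), a direct VND target in vessel formation, is a gene of 2 exons on the minus strand of chromosome 5 from 4062666 to 4065075. Its values were 1.25, 1.63 and 1.55 FPKM in replicates 1, 2 and 3 of *bron-2*, against 1.78, 0.522 and 0.933 FPKM in wild type. The *bron-2* libraries lay close together, between the highest wild-type library and the other wild-type libraries. The log2 difference was 0.29 (standard error 0.228, 95% interval -0.24 to 0.82, limma adjusted p = 0.720). Without wild type replicate 1 it was 0.53 and passed the unadjusted threshold (limma adjusted p = 0.429), and without wild type replicate 2 it was 0.090 and did not pass (limma adjusted p = 0.964).

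MYB83 (AT3G08500) acts redundantly with MYB46 and lies on the minus strand of chromosome 3 from 2576444 to 2578276. In *bron-2* it reached 0.313, 0.573 and 0.312 FPKM in replicates 1, 2 and 3, against 0.305 and 0.198 FPKM in replicates 1 and 2 of wild type, where it was listed at 0 in replicate 3. This was the only one of the 10 genes whose groups did not overlap, and the closest libraries, 0.312 and 0.305 FPKM, nearly met. Of the 5663 genes above 0 but under a mean of 1 FPKM, 2.79% were higher in every *bron-2* library, and of the 17107 tested genes 7.06% were. In either direction, 15.7% of the tested genes had groups that did not overlap. The log2 difference without the filter was 0.26 (95% interval -0.033 to 0.56, limma adjusted p = 0.599), and the exact permutation p, two-sided, was 0.1. Multiplied by relative depth, MYB83 was at 2.03, 3.56 and 2.00 times the lowest library above 0 in *bron-2* and at 1.58, 1 and 0 times in wild type. This undoes the library scaling of FPKM and is no correction for depth. As each *bron-2* library was deeper, it sets the genotypes further apart than FPKM does.

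**Figure D1:**
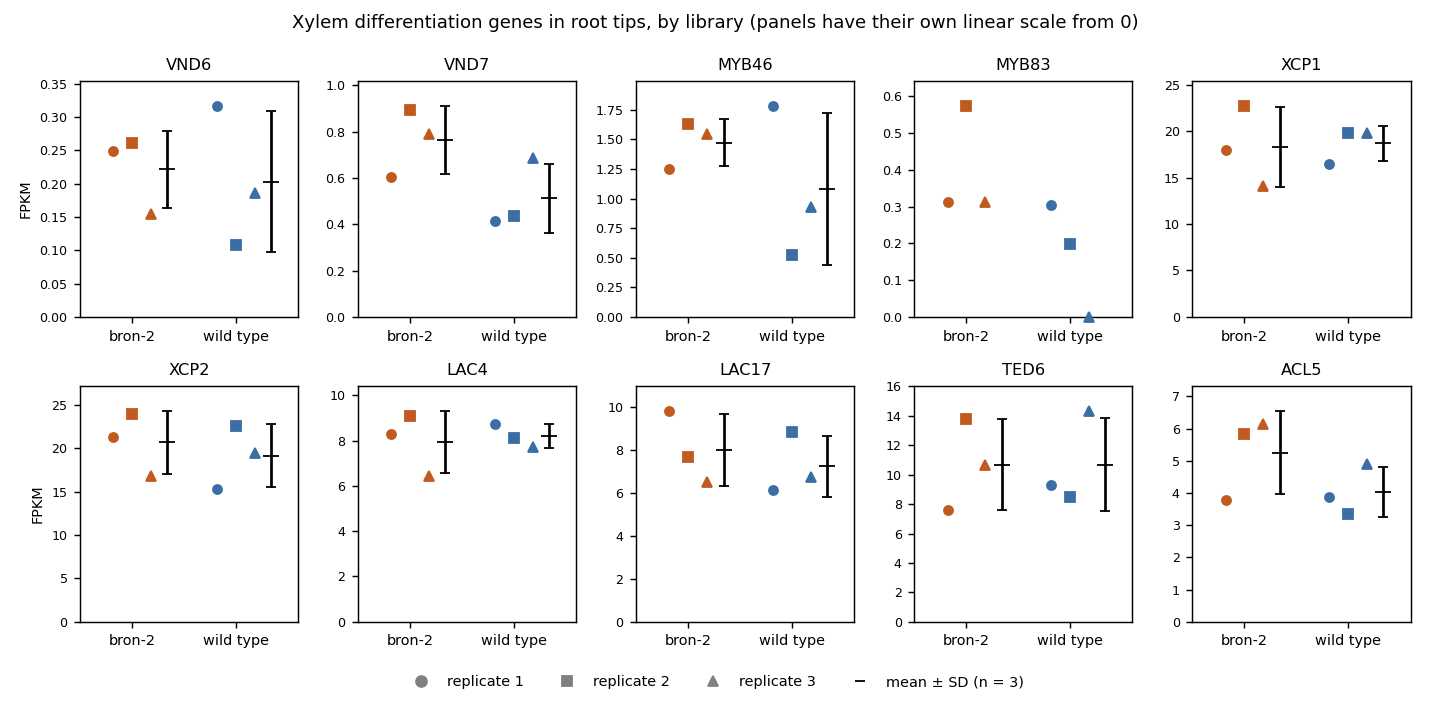
FPKM of the 10 xylem differentiation genes in the 3 *bron-2* libraries (left in each panel) and the 3 wild-type libraries (right), with a linear axis from 0 for each gene and bars for the mean ± SD, which is left out for MYB83 because it was listed at 0 in 1 library. Only in MYB83 do the genotypes not overlap, at 0.312 to 0.573 FPKM in *bron-2* and 0 to 0.305 FPKM in wild type.

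The peptidases were the highest of the 10 genes. XCP1 (AT4G35350, chromosome 4, 16810482 to 16812077, plus strand, 3 exons) was at 18.0, 22.7 and 14.1 FPKM in replicates 1, 2 and 3 of *bron-2*, against 16.5, 19.8 and 19.8 FPKM in wild type. The highest and the lowest library were both *bron-2*. The means were 18.3 ± 4.27 FPKM in *bron-2* and 18.7 ± 1.92 FPKM in wild type (SD, n = 3 each), with a log2 difference of -0.049 (95% interval -0.43 to 0.34, limma adjusted p = 0.954). XCP1 overlaps AT4G35360 on the opposite strand, and whether the counting used strand is not given in the sources used here.

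XCP2 (AT1G20850, chromosome 1, 7252111 to 7253747, plus strand, 4 exons) was at 21.3, 24.0 and 16.8 FPKM in replicates 1, 2 and 3 of *bron-2*, against 15.4, 22.6 and 19.5 FPKM in wild type. The wild-type values lay within or just below the *bron-2* range. The means were 20.7 ± 3.61 FPKM in *bron-2* and 19.1 ± 3.64 FPKM in wild type (SD, n = 3 each), with a log2 difference of 0.11 (95% interval -0.28 to 0.50, limma adjusted p = 0.878). XCP1 stood at 0.841 to 0.946 times XCP2 in the *bron-2* libraries and at 0.875 to 1.07 times in wild type. Their transcripts share no exact run longer than 23 bases, with reads of 100 bases, and are identical at 73.3% of aligned bases.

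LAC4 and LAC17 encode laccases that polymerise lignin monomers in the wall. LAC4 (AT2G38080, chromosome 2, 15934244 to 15937616, plus strand, 6 exons) was at 8.29, 9.09 and 6.44 FPKM in replicates 1, 2 and 3 of *bron-2*, against 8.74, 8.13 and 7.69 FPKM in wild type. It had the narrowest interval of the 7 tested genes, at -0.36 to 0.26 around a log2 difference of -0.050 (limma adjusted p = 0.935). The wild-type libraries all lay inside the *bron-2* range.

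LAC17 (AT5G60020, chromosome 5, 24167996 to 24170462, plus strand, 6 exons) was at 9.82, 7.67 and 6.50 FPKM in replicates 1, 2 and 3 of *bron-2*, against 6.12, 8.85 and 6.77 FPKM in wild type. The groups overlapped, with *bron-2* replicate 1 the highest library and wild type replicate 1 the lowest. The log2 difference was 0.12 (95% interval -0.28 to 0.53, limma adjusted p = 0.863). LAC17 overlaps AT5G00685 and AT5G60022 on the opposite strand. The ratio of LAC4 to LAC17 was 0.844 to 1.18 in *bron-2* and 0.919 to 1.43 in wild type, so neither laccase was the higher in every library of either genotype.

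TED6 (AT1G43790), a single-exon gene of chromosome 1 (16575759 to 16576541, plus strand), encodes a membrane protein that takes part in secondary wall formation in vessels. It was at 7.63, 13.8 and 10.7 FPKM in replicates 1, 2 and 3 of *bron-2*, against 9.28, 8.47 and 14.3 FPKM in wild type. Both genotypes averaged 10.7 FPKM, with an SD of 3.07 in *bron-2* and 3.17 in wild type (n = 3 each). The estimate was nearest to 0 of the 7 tested genes, but its interval was wide, at -0.56 to 0.55 on the log2(FPKM + 1) scale (limma adjusted p = 0.999).

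**Figure D2:**
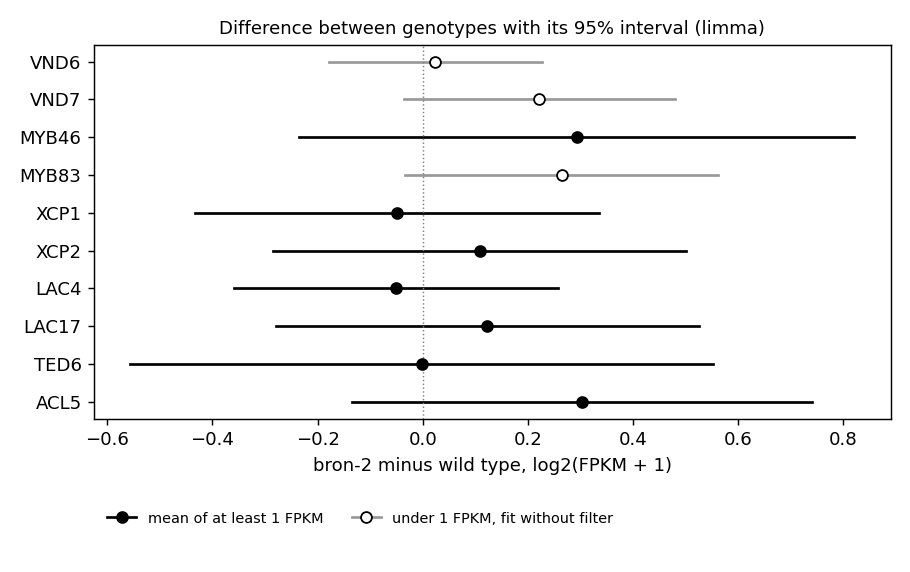
Difference between *bron-2* and wild type on the log2(FPKM + 1) scale for the 10 xylem differentiation genes, with 95% intervals from limma. Filled points are the 7 tested genes and open points are genes under 1 FPKM from the fit without the filter, and every interval includes 0, the widest running from -0.24 to 0.82 for MYB46 and from -0.56 to 0.55 for TED6.

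ACL5 (AT5G19530) makes thermospermine from spermidine, and loss of the enzyme in Arabidopsis leads to overgrown xylem and short stems. It spans 6588771 to 6591363 on the minus strand of chromosome 5, has 9 exons and overlaps AT5G19520 on the opposite strand. Its values were 3.77, 5.84 and 6.14 FPKM in replicates 1, 2 and 3 of *bron-2*, against 3.86, 3.34 and 4.88 FPKM in wild type. In *bron-2*, replicates 2 and 3 were above every wild-type library, and replicate 1 lay between the wild-type values. In the main fit ACL5 had the largest estimate of the 7 tested genes, a log2 difference of 0.30 (standard error 0.188, 95% interval -0.14 to 0.74, limma adjusted p = 0.644). With a pseudocount of 0.1 FPKM the estimate of MYB46 was larger, at 0.56 against 0.36 for ACL5, and neither passed the unadjusted threshold. Without *bron-2* replicate 1 the ACL5 difference was 0.49 and passed the unadjusted threshold (limma adjusted p = 0.4996). It was 0.20 without *bron-2* replicate 3 (limma adjusted p = 0.818) and 0.20 without wild type replicate 2 (limma adjusted p = 0.917), and neither passed.

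The other thermospermine and polyamine genes were 9 in number, and 7 reached the mean of 1 FPKM. Of these 7 genes, 2 passed the unadjusted threshold, both higher in *bron-2*, where 4.03% of all tested genes were called higher and 9.79% in either direction, and none of the 7 passed the adjusted threshold. A list of 7 genes is too short to be read against these shares. The list median was 0.052. SACL1 was not analysed here. SAC51 and its relatives encode bHLH proteins whose translation thermospermine promotes by relieving small open reading frames in their leaders, and the proteins restrain vessel formation.

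SACL2 (AT5G50010, chromosome 5, 20348615 to 20350830, plus strand) was at 8.02, 10.5 and 9.68 FPKM in replicates 1, 2 and 3 of *bron-2*, against 6.96, 5.99 and 6.65 FPKM in wild type. Every *bron-2* library was above every wild-type library. The log2 difference was 0.46 (standard error 0.121, 95% interval 0.18 to 0.74, limma adjusted p = 0.319), and it passed the unadjusted threshold in all 13 alternative settings, with adjusted p between 0.245 and 0.771.

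SAC51 (AT5G64340, chromosome 5, 25730335 to 25733313, minus strand) was at 11.8, 14.9 and 13.2 FPKM in replicates 1, 2 and 3 of *bron-2*, against 11.6, 9.24 and 10.4 FPKM in wild type. The groups did not overlap, though *bron-2* replicate 1 was only slightly above wild type replicate 1. The log2 difference was 0.32 (standard error 0.121, 95% interval 0.044 to 0.60, limma adjusted p = 0.451), and it passed the unadjusted threshold in 8 of 13 alternative settings. It no longer passed without *bron-2* replicate 2 (0.25, adjusted p = 0.828), *bron-2* replicate 3 (0.33, adjusted p = 0.565), wild type replicate 2 (0.25, adjusted p = 0.829) or wild type replicate 3 (0.33, adjusted p = 0.381), nor with the replicate number as a block (limma adjusted p = 0.382). SAC51 overlaps AT5G64330 on the opposite strand.

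SACL3 was at 5.03, 5.22 and 4.59 FPKM in replicates 1, 2 and 3 of *bron-2*, against 6.70, 4.04 and 4.55 FPKM in wild type, with a log2 difference of -0.012 (95% interval -0.40 to 0.38). BUD2, which makes the aminopropyl donor used by ACL5, was at 0.427, 0.524 and 0.452 FPKM in *bron-2* and 0.176, 0.181 and 0.320 FPKM in wild type. BUD2 was thus higher in every *bron-2* library, and in the fit without the filter its log2 difference was 0.26 and passed the unadjusted threshold (limma adjusted p = 0.455). Of genes above 0 but under a mean of 1 FPKM, 2.79% were higher in every *bron-2* library. Without the filter 8.7% of 22770 genes passed the unadjusted threshold in either direction. Each *bron-2* library was deeper, and the part of depth in these low values was not tested. SPDS1, a spermidine synthase and the highest gene of the list, was at 74.8, 81.9 and 84.1 FPKM in *bron-2*, against 71.4, 72.2 and 77.5 FPKM in wild type (log2 difference 0.12, limma adjusted p = 0.664). BUD2 and SACL3 were named after their values were seen.

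**Figure D3:**
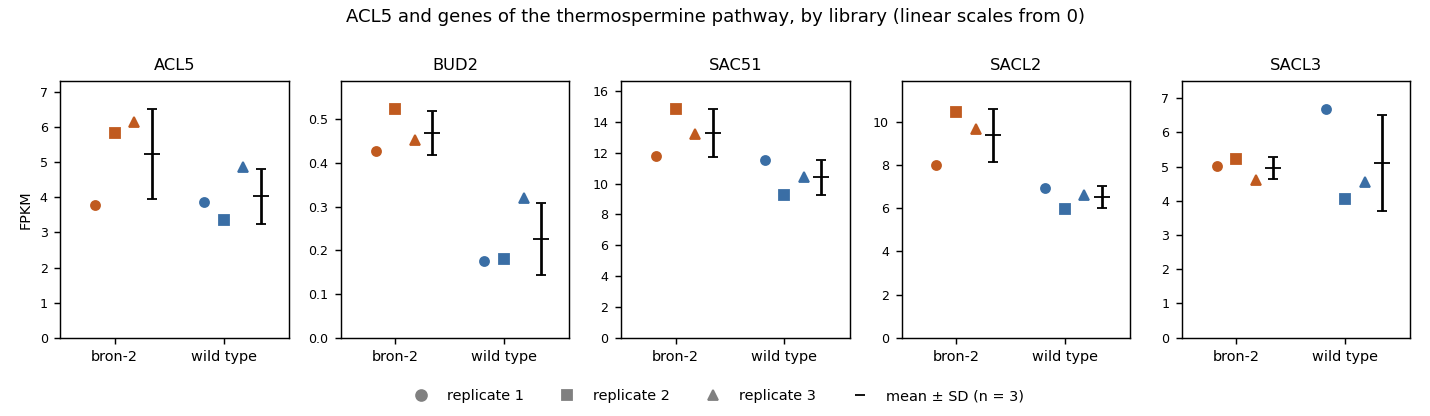
FPKM of ACL5, BUD2, SAC51, SACL2 and SACL3 in the 3 *bron-2* libraries (left in each panel) and the 3 wild-type libraries (right), on linear axes from 0, with bars for the mean ± SD (n = 3). BUD2, SAC51 and SACL2 lie higher in every *bron-2* library, for example SACL2 at 8.02 to 10.5 FPKM against 5.99 to 6.96 FPKM in wild type, while the genotypes overlap for ACL5 and SACL3. Of all tested genes 7.06% were higher in every *bron-2* library, and of genes above 0 but under a mean of 1 FPKM, such as BUD2, 2.79% were.

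The other 6 pathway lists held few calls. Their genes were chosen by pathway, and in which cells of the root tip they were expressed was not tested. Over all 7 lists, 83 genes were named, 59 reached the mean of 1 FPKM, and 3 of these, or 5.08%, passed the unadjusted threshold, all higher in *bron-2*. Of all tested genes 4.03% were called higher and 5.76% lower. The median log2 difference over the 59 genes was -0.00556. The third call beside SACL2 and SAC51 was FLA12, a fasciclin-like arabinogalactan protein of secondary walls. FLA12 was at 10.8, 9.51 and 10.5 FPKM in replicates 1, 2 and 3 of *bron-2*, against 7.85, 7.86 and 8.86 FPKM in wild type, with no overlap. Of all tested genes 7.06% were higher in every *bron-2* library. Its log2 difference was 0.29 (95% interval 0.064 to 0.53, limma adjusted p = 0.405), and it was 1 of 15 genes of secondary wall cellulose and xylan. It no longer passed the unadjusted threshold without *bron-2* replicate 1 (0.26, adjusted p = 0.581) or without wild type replicate 2 (0.27, adjusted p = 0.824). The remaining 14 did not pass, including CESA4, CESA7 and CESA8, the cellulose synthases of the secondary wall, at log2 differences of 0.034, 0.035 and -0.18. The highest gene of that list, the xylan gene IRX15L, was at 39.1, 40.7 and 37.7 FPKM in *bron-2*, against 44.2, 45.0 and 36.2 FPKM in wild type (log2 difference -0.084).

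Upstream of the wall genes, none of 4 tested NAC regulators and none of 5 tested MYB and homeobox regulators passed the unadjusted threshold, and their list medians were 0.013 and -0.041. A further 9 of the 13 NAC-list genes and 6 of the 11 MYB-list genes were under 1 FPKM. The highest NAC-list gene, VNI2, which binds VND7 and represses its activity, was at 74.4, 89.0 and 89.2 FPKM in replicates 1, 2 and 3 of *bron-2*, against 82.9, 73.3 and 83.6 FPKM in wild type (log2 difference 0.072, limma adjusted p = 0.861). The homeobox gene KNAT7 was at 13.1, 16.5 and 13.0 FPKM in *bron-2* and 12.8, 14.6 and 14.4 FPKM in wild type (log2 difference 0.019). VND3, a NAC relative of VND7 that was named after its values were seen, was at 0.612, 1.27 and 1.62 FPKM in *bron-2*, against 0.448, 0.555 and 0.394 FPKM in wild type. It was higher in every *bron-2* library and had a log2 difference of 0.54 in the fit without the filter, past the unadjusted threshold (limma adjusted p = 0.493). The shares were 2.79% of genes above 0 but under a mean of 1 FPKM for the former and 8.7% of 22770 genes, in either direction, for the latter.

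Lignin genes and cell death genes gave no calls either, while 9.79% of all tested genes were called. In lists this short, a count of 0 is near that share. The counts were 0 of 8 tested genes of lignin monomer synthesis (median -0.0059), 0 of 11 other laccases and lignin peroxidases (median -0.020) and 0 of 9 genes of xylem cell death and wall patterning (median 0.018). CCOAOMT1, a methyltransferase of lignin synthesis, was at 1465, 1576 and 1435 FPKM in replicates 1, 2 and 3 of *bron-2*, against 1448, 1580 and 1467 FPKM in wild type, a log2 difference of -0.0063 (95% interval -0.18 to 0.16). The peroxidase PRX72 was at 493, 598 and 644 FPKM in *bron-2*, against 378, 481 and 554 FPKM in wild type (log2 difference 0.30, limma adjusted p = 0.568), and those groups overlapped. The ribonuclease RNS3 was at 211, 187 and 183 FPKM in *bron-2*, against 173, 165 and 184 FPKM in wild type (log2 difference 0.15, limma adjusted p = 0.605). CAD4 and the laccases LAC5, LAC9 and LAC12, named after their values were seen, were lower in every *bron-2* library. Of all 17107 tested genes, 1484 were lower in every *bron-2* library, and for 15.7% the groups did not overlap in either direction. CAD4 was at 345, 350 and 314 FPKM in *bron-2*, against 353, 396 and 361 FPKM in wild type (log2 difference -0.14, limma adjusted p = 0.617). LAC9 had a log2 difference of -0.13. LAC5 and LAC12 were under 1 FPKM and so were not among the tested genes.

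**Figure D4:**
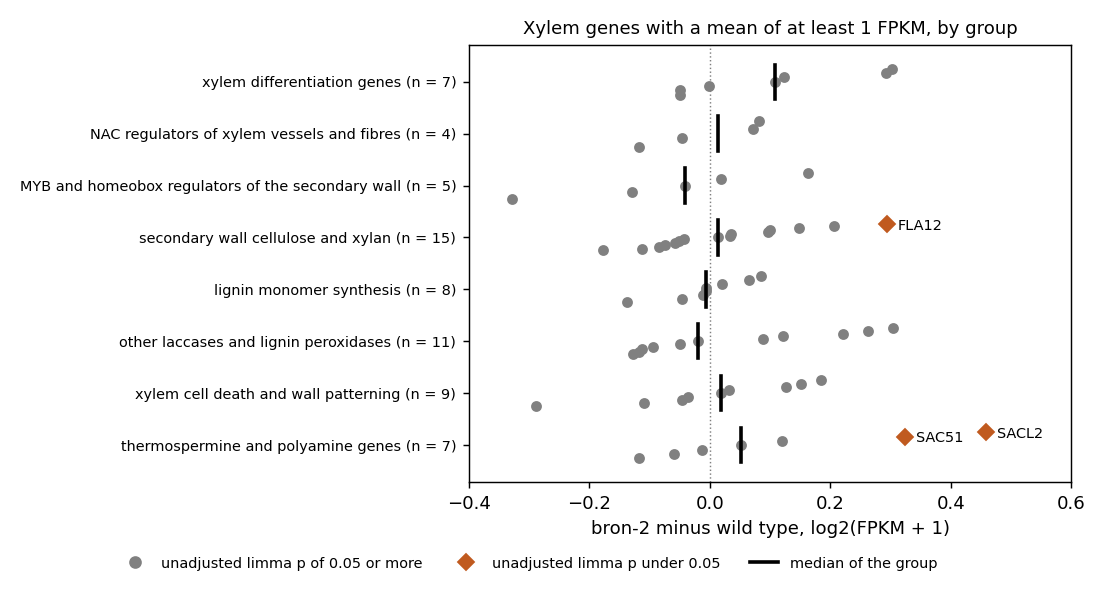
Difference between *bron-2* and wild type on the log2(FPKM + 1) scale (horizontal axis) for each gene with a mean of 1 FPKM or more, by gene group (rows), with black bars for group medians. The 7 xylem differentiation genes have a median of 0.11 and no call, and the only genes past an unadjusted limma p of 0.05 are FLA12 at 0.29, SAC51 at 0.32 and SACL2 at 0.46.

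The peptidases, TED6 and the laccases had higher levels than the 4 transcription factors, with ACL5 between them. By mean FPKM over the 6 libraries the order was XCP2 (19.9), XCP1 (18.5), TED6 (10.7), LAC4 (8.06), LAC17 (7.62), ACL5 (4.64), MYB46 (1.28), VND7 (0.637), MYB83 (0.283) and VND6 (0.212). The ranges of neighbours in this order overlapped over the 6 libraries for all pairs except ACL5 and MYB46, whose means differed 3.64 times. Within each library, however, XCP1 was above TED6, LAC17 above ACL5, MYB46 above VND7 and VND7 above MYB83 in 6 of 6. XCP2 was above XCP1 in 4 of 6 libraries, LAC4 above LAC17 in 3 and MYB83 above VND6 in 4.

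The 7 tested genes did not all peak in the same library, and none of them separated the genotypes. XCP1, XCP2 and LAC4 were each highest in *bron-2* replicate 2, at z-scores over the 6 libraries of 1.31, 1.14 and 1.04. XCP1 and LAC4 were lowest in *bron-2* replicate 3, at -1.55 and -1.79, where ACL5 was at its highest, 1.24. TED6 was highest in wild type replicate 3 (1.25) and MYB46 in wild type replicate 1 (0.97). Of the 45 pairs among the 10 genes, 30 had a Pearson r above 0 over the 6 libraries and 15 below 0. The 5 highest were 0.906 for VND7 with ACL5, 0.823 for XCP1 with XCP2, 0.774 for VND6 with MYB46, 0.754 for XCP2 with LAC17 and 0.736 for TED6 with ACL5. The 5 lowest were -0.519 for LAC17 with TED6, -0.499 for MYB46 with LAC17, -0.483 for LAC17 with ACL5, -0.474 for MYB46 with XCP2 and -0.408 for LAC4 with ACL5. For VND6 with VND7 r was -0.0081. With 6 libraries that share their depth across genes, these values describe the libraries only.

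The peptidases and LAC4 had the highest median r with 15 genes of secondary wall cellulose and xylan. XCP1 had a median r of 0.460 with them and its highest r, 0.950, with CESA7, and XCP2 had a median r of 0.498 with the highest, 0.939, for FLA11. LAC4 had a median r of 0.470, LAC17 0.276 and TED6 0.129, while ACL5 and MYB46 both had a median r of -0.13. Outside the lists, the genes most like the mean z-score of the 7 tested genes among 12128 genes averaging 5 FPKM or more were CYP77A5P (r = 0.984), AT5G04860 (0.983), RIN3 (0.983), CPK30 (0.980) and PIA1 (0.978). These r are the highest of 12128 over 6 libraries, and a search of that size gives high values by itself. CYP77A5P was at 5.53, 7.002 and 4.55 FPKM in replicates 1, 2 and 3 of *bron-2*, against 4.48, 5.10 and 5.35 FPKM in wild type. Its peak in *bron-2* replicate 2 follows from the way it was picked, as the mean z-score was highest there (0.918).

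**Figure D5:**
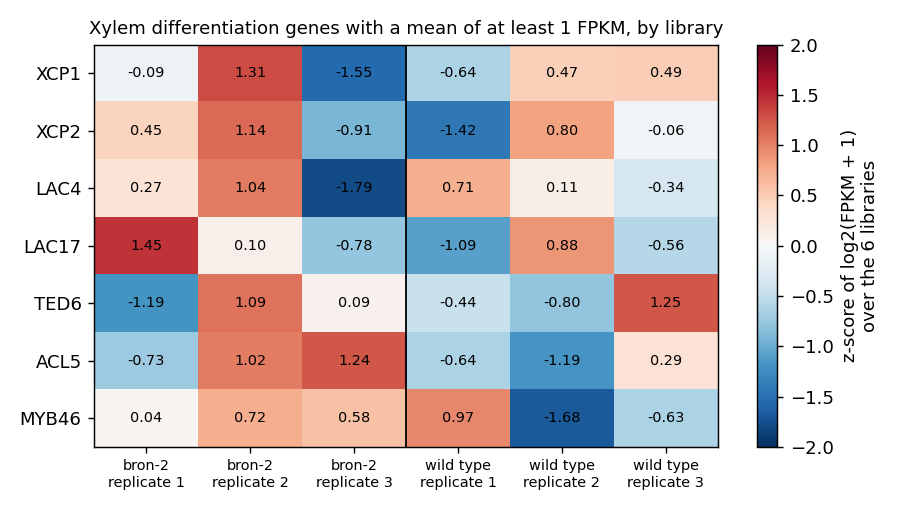
z-scores of log2(FPKM + 1) over the 6 libraries (columns, *bron-2* left of the black line, wild type right of it) for the 7 tested xylem differentiation genes (rows), red for high and blue for low. XCP1, XCP2 and LAC4 peak together in *bron-2* replicate 2 (1.31, 1.14 and 1.04), and no row separates the genotypes.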

How the data were processed

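RNA-seq of 3 *bron-2* and 3 wild-type libraries was used, with single-end reads of 100 bases. The authors mapped reads to TAIR10 with Cufflinks and deposited FPKM values for 33560 genes. Versions, the annotation, strand use and the handling of reads shared between genes are not given in the sources used here. FPKM values hold no read counts, so no counting intervals can be given, and relative depth came from 660 to 796 low genes per pair of libraries (largest residual 0.0191).

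Genes with a mean of 1 FPKM or more were fitted on log2(FPKM + 1) with limma 3.58.1 (R 4.3.3), with lmFit and eBayes with a trend, two-sided, with Benjamini-Hochberg adjustment over the 17107 genes. The unadjusted threshold of 0.05 follows the study, whose PoissonSeq test needs counts. This log scale understates changes of low genes. Exact permutation tests and correlations used Python 3.11.15 with numpy 2.4.6 and pandas 2.3.3. Promoter searches used Python, and transcripts were aligned with biopython 1.88. Fits were tested on simulated data.

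The xylem genes, the pathway lists and the tests were chosen with earlier results of these data known. By rule the text names the 10 genes, BRON, each list's highest gene and genes past the unadjusted threshold in the main fit, and the 5 genes most alike in pattern. Genes named outside this rule include BUD2, VND3, SACL3, CESA4, CESA7, CESA8, CAD4, LAC5, LAC9 and LAC12. So were genes called only in alternative fits, genes with a promoter match and some markers. Coordinates are from TAIR10.1, where 32826 of 33560 loci matched. The files hold no coordinates. The fit was repeated without any filter, with a minimum mean of 5 FPKM, with 0.1 as pseudocount, after median or quantile scaling, without the trend, with a replicate block and with each library omitted.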

Additional observations from a re-analysis of the deposited data

How the results depend on the processing

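No xylem differentiation gene passed an adjusted p-value under 0.05 in any of the 13 alternatives that tested it. Leaving out 1 library at a time gave 0 to 1 of them at the unadjusted threshold, the exceptions being ACL5 without *bron-2* replicate 1 and MYB46 without wild type replicate 1. Small estimates changed sign without 1 library. Over these fits the log2 difference ran from -0.21 (without *bron-2* replicate 2) to 0.11 (without *bron-2* replicate 3) for XCP1, from -0.034 (without wild type replicate 1) to 0.24 (without *bron-2* replicate 3) for XCP2, from -0.14 (without *bron-2* replicate 2) to 0.076 (without *bron-2* replicate 3) for LAC4, and from -0.018 (without *bron-2* replicate 1) to 0.26 (without wild type replicate 2) for LAC17. MYB46 ran from 0.090 (without wild type replicate 2) to 0.53 (without wild type replicate 1) and ACL5 from 0.20 (without *bron-2* replicate 3) to 0.49 (without *bron-2* replicate 1), with no change of sign. With 0.1 FPKM as pseudocount and all libraries, MYB46 was at 0.56 and ACL5 at 0.36. TED6 was at -0.19 without *bron-2* replicate 2, 0.20 without *bron-2* replicate 1, 0.21 without wild type replicate 3, 0.0017 with median scaling and 0.00095 with quantile normalization. The cause was not tested.

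Over all tested genes, leaving out 1 library gave 1056 to 2298 calls at the unadjusted threshold, against 1674, the lowest being without *bron-2* replicate 2 (1056) and wild type replicate 2 (1061). At the adjusted threshold it gave 8 to 33, against 14, with 8 without *bron-2* replicate 1 and without wild type replicate 2, 27 without wild type replicate 1 and 33 without wild type replicate 3. A mean of at least 5 FPKM gave 7, and it leaves MYB46 and ACL5 untested. By list, leaving out 1 library gave 0 to 1 calls for the MYB and homeobox regulators, 0 to 2 for cellulose and xylan, 0 to 3 for other laccases and peroxidases, 0 to 1 for cell death and patterning, and 1 to 2 for thermospermine genes. The MYB-list call was MYB20, lower in *bron-2* without wild type replicate 3 (log2 difference -0.46, limma adjusted p = 0.261). Without the filter the NAC list had 1 call, VND3, the thermospermine list had 3, BUD2 among them, and quantile normalization gave 1 among the laccases and peroxidases.

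The replicate number was also used as a block. Deviations of libraries with the same number correlated at 0.123, -0.0133 and 0.186 for replicates 1, 2 and 3, so the numbers were not taken as pairs, and not every library correlated best with its own number. With the block there were 2253 calls over all tested genes at the unadjusted and 16 at the adjusted threshold. None of the xylem differentiation genes was among them. The lists then had 1 call among MYB and homeobox regulators, MYB20, which was lower in *bron-2* (log2 difference -0.33, limma adjusted p = 0.346). Cellulose and xylan had 2, FLA12 and FRA8, and other laccases and peroxidases had 3, LAC3, PRX64 and PRX72, all higher in *bron-2*. Thermospermine genes had 1, SACL2, and SAC51 no longer passed.

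With 3 libraries a genotype and no read counts, the intervals, which reach 0.82 for MYB46, limit the precision, and VND6, VND7 and MYB83 were too low for a test at the filter used.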
